A study of Mus musculus with 12 samples.

Results

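The genes described here are named as genes for proteins of the cytosolic ribosome, and a few of them are paralogues or near-copies of such genes. They were chosen by symbol alone, as every counted gene named Rpl or Rps with a number and, where present, the letter a, x, y or l and a further digit, together with Rplp0, Rplp1, Rplp2 and Rpsa. Genes named as pseudogenes were left out. The rule took 89 of 78317 gene IDs, 36 for the small and 53 for the large subunit, and 85 of them (35 small, 50 large) had enough counts to be among the 17130 genes tested. The 4 that did not were Rpl10l, Rpl6l, Rpl32l and Rps12l1. Some ribosome components with other names, such as Fau and Rack1, fall outside the rule.

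RNA was sequenced in bulk from uninjured heart ventricles of C57BL/6J mice, collected at 3 wpp (the labels' unit, which they also use for weaning) from offspring that the labels call adult. The injured-sire group held 6 offspring of males whose hearts were cryoinjured on postnatal day 1 (the treatment label itself reads Injured P0). The uninjured-sire group held 6 offspring of uninjured males. The comparison addresses whether an injury of the father's neonatal heart leaves a trace in the heart transcripts of offspring that were not injured themselves. All animals were of the same strain and carried no stated allele or treatment of their own. Per the labels, the injured-sire offspring were 3 males and 3 females and the uninjured-sire offspring 4 males and 2 females, but single libraries are not tied to a sex. Sire, litter and batch are likewise not stated for single animals, some of which may be siblings, so a p-value here covers only the variation among the libraries at hand. Replicate 16 of the injured-sire group, which the labels name as an outlier, was left out of the comparison and its values are given beside the others.

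A cytosolic ribosome joins a small subunit, which reads the messenger RNA, and a large subunit, which forms peptide bonds, and each holds ribosomal RNA with a set of proteins, most of them present in a single copy. The messenger RNAs of ribosomal proteins start with a run of pyrimidines, the TOP motif, through which mTORC1 and Larp1 set their translation together. Mammalian genomes hold many processed pseudogenes of these genes, and a few intact paralogues that differ between tissues, of which Rpl3l is the form of striated muscle.

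Start sites of 5 members and of Rpl3l show a run of pyrimidines or its absence. They were taken from RefSeq on build GRCm38.p6, where 64 of the 89 genes had an entry. A run near an annotated start is not by itself the TOP motif, and a missing run does not show that the motif is absent. Each line gives 15 bases before and 15 from the annotated start on the gene's own strand, 5′ to 3′, with capitals for a run of at least 8 C or T that reaches within 25 bases of the start. Rps6, on chromosome 4, is the protein that S6 kinase phosphorylates, and Rplp2 is a stalk protein; Rpl28 and Rpl15 have the longer runs here, and Rps27 shares nearly all of its transcript sequence with other annotated genes. RefSeq had 2 starts for Rpl3l, both shown. The lack of a run is not particular to Rpl3l, as Rplp0, Rps19 and Rps4x also had none.
Rps6, chr4:86857353-86857382, minus strand: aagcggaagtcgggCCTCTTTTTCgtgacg
Rplp2, chr7:141447636-141447665, plus strand: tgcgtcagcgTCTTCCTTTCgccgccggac
Rpl28, chr7:4792950-4792979, plus strand: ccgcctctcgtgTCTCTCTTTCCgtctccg
Rpl15, chr14:18270972-18271001, minus strand: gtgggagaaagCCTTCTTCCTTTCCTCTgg
Rps27, chr3:90213634-90213663, minus strand: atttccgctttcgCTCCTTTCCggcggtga
Rpl3l, chr17:24727811-24727840, plus strand: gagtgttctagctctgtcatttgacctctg
Rpl3l, chr17:24732670-24732699, plus strand: gtcatcaacagctacagtgccccaaatgtc

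A pyrimidine run by that definition was found on the sense strand of 38 of the 64 matched genes (59.4%), 13 of 24 small-subunit and 25 of 40 large-subunit genes, against 7311 of all 27025 genes in the RefSeq table (27.1%). The letters CCGGAAG, the core that ETS family factors bind, stood on either strand within the 300 bases around the start in 26 of the 64 genes (40.6%), against 9.93% of all genes in the table. The first letters of the reverse complement, CTTCC, can be the end of a pyrimidine run, so the 2 searches are not wholly separate. A match is a description of these letters only. Among matched members with at least 10 CPM, the median log2 fold change between the groups was -0.0035 over 34 genes with a run and -0.0046 over 24 without.

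Libraries held 30537315 to 42090257 counts, and the 89 genes took 1.125%, 1.284%, 1.159%, 1.264% and 1.224% of them in the 5 injured-sire libraries compared, against a lowest of 1.097%, a median of 1.197% and a highest of 1.310% in the 6 uninjured-sire libraries. The 2 groups overlapped over nearly their whole range. Mean shares were 1.211% ± 0.0680 in injured-sire libraries (SD, n = 5) and 1.204% ± 0.0736 in uninjured-sire libraries (SD, n = 6). Replicate 16 had the highest share of all 12 libraries, 1.34% (95% Wilson interval 1.333% to 1.340%, which covers counting error only). As a check of the tissue, CPM (counts scaled to a library size of 1e+06) of 6 cardiomyocyte markers were summed. The sum ran from 60848 to 72147 in injured-sire libraries and from 56093 to 66091 in uninjured-sire libraries. The ventricular gene Myl2 ran from 4352 to 5362 CPM in injured-sire and from 4687 to 5432 CPM in uninjured-sire libraries. The atrial markers Myl7, Myl4, Sln and Nppa summed to 3190 to 3761 CPM in injured-sire and 2979 to 3636 CPM in uninjured-sire libraries. The markers thus do not show ventricle alone. Airway markers summed to 40.2 to 658 CPM in injured-sire libraries and 0.877 to 408 CPM in uninjured-sire libraries, and fat markers to 169 to 541 CPM in injured-sire and 47.8 to 423 CPM in uninjured-sire libraries; their part in the results below was not tested beyond a fit with both as covariates.

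No ribosomal protein gene passed the test in either direction. In edgeR's quasi-likelihood test with Benjamini-Hochberg adjustment over all 17130 genes, 0 of 85 members had an adjusted p below 0.05, where 18 of all genes tested (0.105%) did, 9 higher and 9 lower in injured-sire hearts (0.0525% each). Against so low a background, a count of 0 among 85 genes is no result about these genes. Before adjustment, 4 of 85 members (4.71%) had a p below 0.05, against 8.96% of all genes tested, and DESeq2's Wald test and limma voom also called 0 members. The levels of the 2 groups overlapped for every one of the 85 members. Over all genes they did not overlap for 180 (1.05%, split into 0.414% with injured-sire libraries higher and 0.636% with them lower). Against that low background, this too is no result about the members. The measured direction was higher for 38 members and lower for 47, with a median log2 fold change of -0.0032, against 0.00019 over all genes. For small-subunit genes the median was -0.0032 with 16 of 35 higher, and for large-subunit genes -0.0029 with 22 of 50 higher.

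Intervals were narrow for most members. The median standard error of a member's log2 fold change was 0.0642, and 75 of 85 members had a 95% confidence interval lying wholly within a 1.2-fold change in either direction. A set of 6840 genes was at least as high as the lowest of the 79 members with at least 10 CPM, and was not otherwise matched in level. Its median standard error was 0.0712 and 4981 of its genes had such an interval, against 75 of those 79 members. Over all 17130 genes, many of them low, these values were 0.126 and 5508. For 79 members with a mean of at least 10 CPM, fold changes ran from -0.11 (Rpl31) to 0.17 (Rpl3) on the log2 scale, and 8 lay beyond 0.1 in size, 5 higher and 3 lower. The other 6 members (Rpl13a, Rps10, Rpl24, Rps3a2, Rps3a3 and Rpl39l) were below 10 CPM; all were measured higher in injured-sire hearts, with a median standard error of 0.53, and since a gene this low can pass the count filter through the group where it is high, nothing is read from their direction. In bulk tissue, fewer cells of a type and less RNA per cell cannot be told apart, so these values are averages over all cells in each sample.

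**Figure D1:**
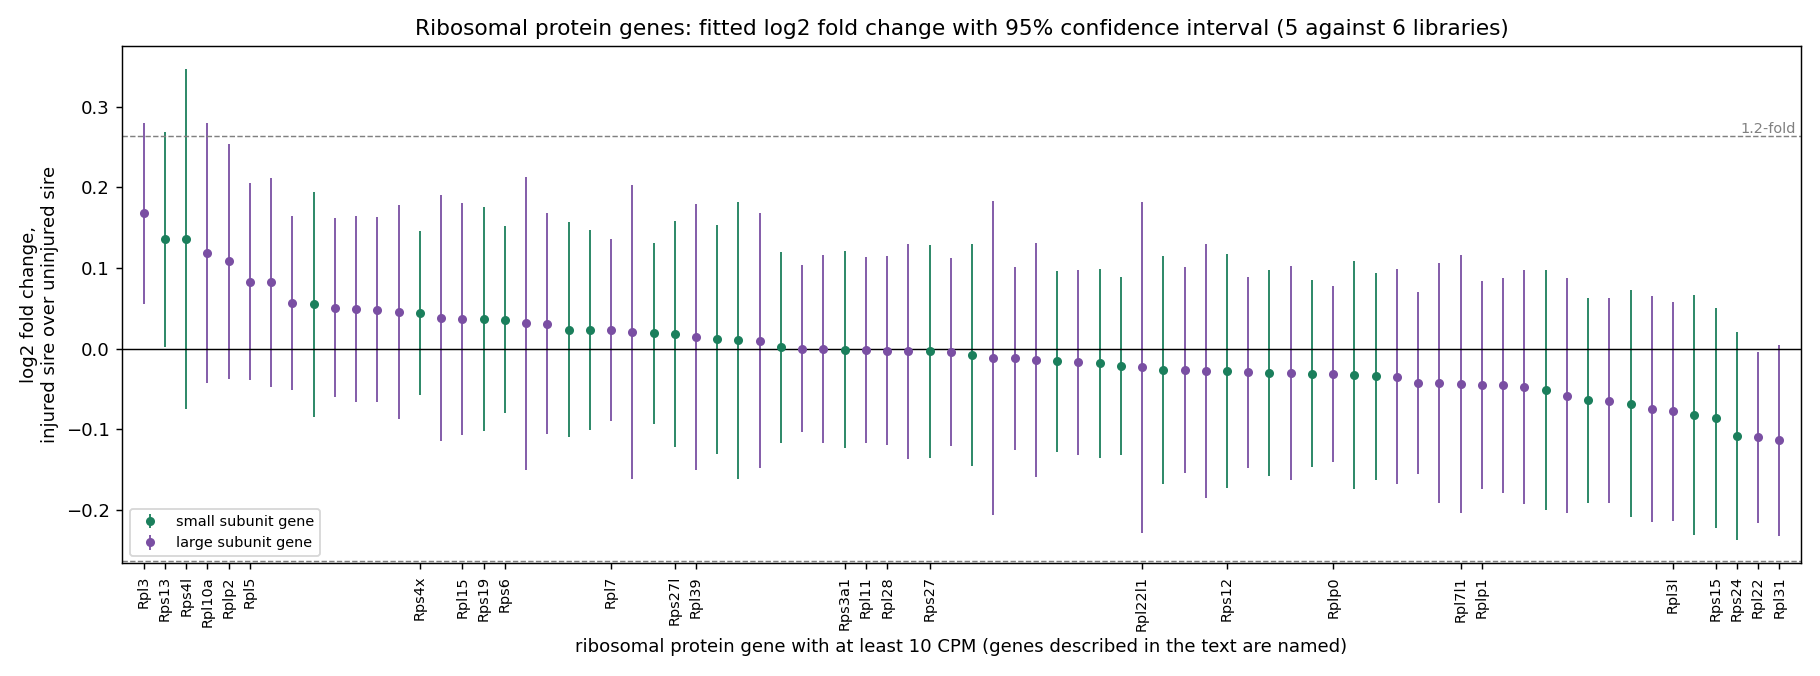
Fitted log2 fold change, injured-sire over uninjured-sire (5 against 6 libraries), of 78 ribosomal protein genes with at least 10 CPM, ordered by value; bars are 95% confidence intervals and dashed lines mark a 1.2-fold change. The points run from 0.17 for Rpl3 to -0.11 for Rpl31, and the intervals of 74 of the genes drawn stay between the dashed lines.

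Rpl3, a large-subunit protein that reaches the peptidyl transferase centre, had the smallest p of all members. It measured 185, 194, 193, 189 and 199 CPM in the 5 injured-sire libraries, against a lowest of 157, a median of 168 and a highest of 190 CPM in uninjured-sire libraries. Of the uninjured-sire libraries, 5 were below every injured-sire library, and the remaining one, replicate 18, lay among them. The log2 fold change was 0.17 ± 0.054 (SE; edgeR adjusted p = 0.298), which does not pass. Replicate 16, at 213 CPM, was above all others.

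Rpl22, a large-subunit protein that also binds viral and cellular RNAs, measured 120, 122, 117, 119 and 121 CPM in injured-sire libraries, against 122 to 139 CPM with a median of 130 in uninjured-sire libraries. The highest injured-sire library only just reached above the lowest uninjured-sire one. Its log2 fold change was -0.11 ± 0.051 (SE; edgeR adjusted p = 0.539). Replicate 16, at 145 CPM, lay above both groups, so that the injured-sire libraries were close together only without it.

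Rps13, a small-subunit protein on the side facing the large subunit, measured 108, 121, 99.9, 121 and 123 CPM in injured-sire libraries, against 97.8 to 115 CPM with a median of 103 in uninjured-sire libraries. Of the injured-sire libraries, 3 were above every uninjured-sire library and the other two were not. The log2 fold change was 0.14 ± 0.064 (SE; edgeR adjusted p = 0.546). The fourth member under 0.05 before adjustment was Rps3a3, a near-copy of Rps3a1, with 0.659 to 1.33 CPM in injured-sire and 0.164 to 1.13 CPM in uninjured-sire libraries and a fitted difference of 0.91 ± 0.43 in log2 (SE; adjusted p = 0.545 by edgeR). It shares 65.1% of its 50-base stretches with other genes and its level is uncertain for that reason.

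The next members by p were Rpl31 (log2 fold change -0.11, adjusted p = 0.578 by edgeR), near the exit of the peptide tunnel, Rps24 (-0.11, adjusted p = 0.643), one of the genes mutated in Diamond-Blackfan anaemia, Rplp2 (0.11, adjusted p = 0.705) and Rpl10a (0.12, adjusted p = 0.708). Rps24 measured 199 to 233 CPM in injured-sire and 220 to 276 CPM in uninjured-sire libraries, where replicate 18 alone stood above the rest. All 4 genes had overlapping groups, and single libraries moved these values: Rpl10a was at 0.07 without injured-sire replicate 13 or uninjured-sire replicate 19 and at 0.08 without injured-sire replicate 15, and without uninjured-sire replicate 18 Rplp2 was at 0.17 and Rps24 at -0.06.

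The stalk, through which elongation factors are recruited, is built from Rplp0, Rplp1 and Rplp2. Rplp0 measured 475 to 539 CPM in injured-sire and 484 to 569 CPM in uninjured-sire libraries, with a log2 fold change of -0.03 ± 0.053 (SE). The acidic stalk protein Rplp1 measured 286 to 331 CPM in injured-sire and 276 to 347 CPM in uninjured-sire libraries, with a log2 fold change of -0.05 ± 0.062 (SE). Rplp2 measured 167 to 198 CPM in injured-sire and 151 to 205 CPM in uninjured-sire libraries. The 3 stalk genes thus lay on both sides of 0, each within a wide overlap of the groups, and none passed the test (edgeR adjusted p of 0.705 or above).

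Rpl5 and Rpl11, which with 5S ribosomal RNA form the particle that holds Mdm2 when ribosome assembly fails, had log2 fold changes of 0.08 ± 0.059 and -0.00 ± 0.056 (SE). Rpl5 measured 138 to 163 CPM in injured-sire and 131 to 156 CPM in uninjured-sire libraries, and Rpl11 156 to 176 CPM in injured-sire and 157 to 181 CPM in uninjured-sire libraries. Neither passed the test. Rps6, the substrate of S6 kinase, measured 96.6 to 111 CPM in injured-sire and 97.4 to 113 CPM in uninjured-sire libraries (log2 fold change 0.04 ± 0.056, SE), and Rps19, the gene most often mutated in Diamond-Blackfan anaemia, 66.6 to 80.8 CPM in injured-sire and 66.6 to 81.1 CPM in uninjured-sire libraries (0.04 ± 0.067, SE).

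Part of the spread in these genes was shared within a library. Centring each of the 79 genes on its own mean over the 11 compared libraries, the median over genes was -0.09, 0.08, -0.09, 0.05 and 0.05 in log2 CPM in the injured-sire libraries 12, 13, 14, 15 and 17, against a range of -0.09 to 0.15 in the uninjured-sire libraries. The highest of these was uninjured-sire replicate 18, where 78 of 79 genes were above their own mean. In injured-sire replicate 14 only 7 of 79 were. The median absolute deviation of genes around their library's median was 0.0509 to 0.0943, and subtracting that median lowered the spread between libraries in 74 of 79 genes, with the median SD going down to 0.0711 against 0.109 without subtraction. These genes share one library's scaling, so their agreement within a library counts as 1 observation per animal.

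**Figure D2:**
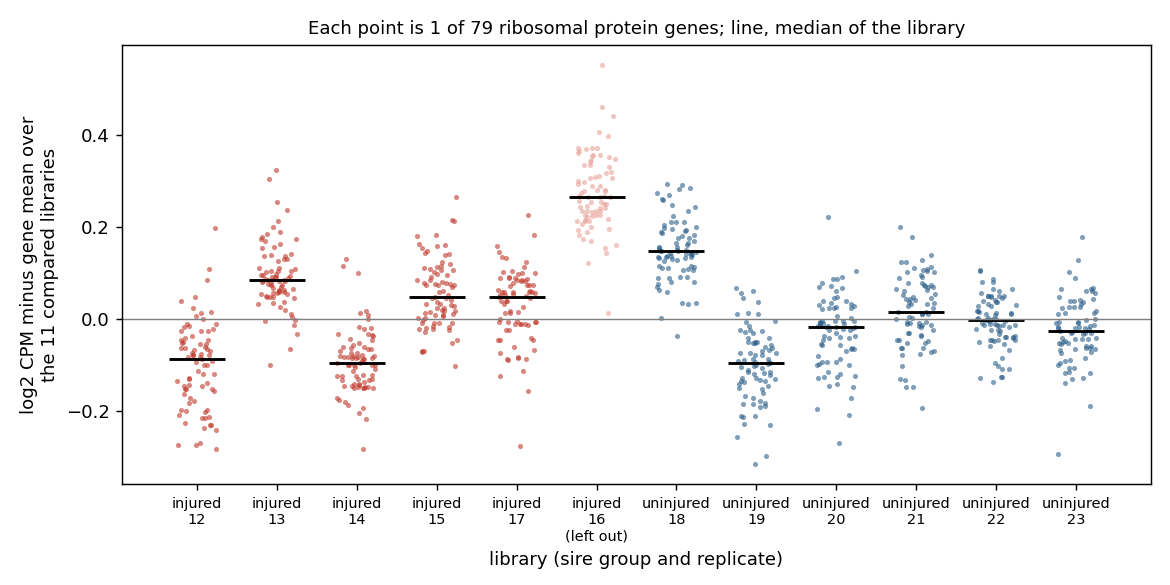
Log2 CPM of each of 79 ribosomal protein genes minus its own mean over the 11 compared libraries (vertical axis) in each library (horizontal axis), injured-sire libraries in red and uninjured-sire in blue, with the left-out replicate 16 in pale red; black lines are medians. The median of replicate 16 is 0.27 and that of uninjured-sire replicate 18 is 0.15, while those of the other libraries lie between -0.09 and 0.08.

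Replicate 16 stood furthest out: all 79 genes were above their own mean over the 11 libraries, with a median of 0.27 in log2 CPM. The median of the 17 TOP genes described below was 0.17 in that library, that of 34 initiation and elongation factors outside the TOP list 0.16 and that of 38 ribosome assembly factors 0.09, and the share of counts from the mitochondrial genome was 20.1%, against a mean of 17.7% in the compared injured-sire libraries and 18.5% in uninjured-sire libraries. With all 12 libraries in the fit, 72 of 83 members tested were measured higher in injured-sire hearts and the median log2 fold change was 0.05, against 0.0023 over all genes; 0 members were called. Single compared libraries also changed which direction held the majority of members. The comparison had 38 higher and 47 lower. Without uninjured-sire replicate 18, 65 were higher and 20 lower, and without injured-sire replicate 12 or 14, 52 were higher and 33 lower.

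The paralogue Rpl3l takes the place of Rpl3 in some ribosomes of heart and skeletal muscle, and mice raise Rpl3 when they lack Rpl3l. Rpl3l measured 119, 146, 130, 147 and 130 CPM in injured-sire libraries, against 128 to 157 CPM with a median of 140 in uninjured-sire libraries, with broad overlap (log2 fold change -0.08 ± 0.065, SE; edgeR adjusted p = 0.797). Set against Rpl3 in the same library, the log2 ratio of Rpl3l to Rpl3 was -0.63, -0.40, -0.57, -0.37 and -0.61 in injured-sire libraries, and from -0.41 to -0.07 with a median of -0.30 in uninjured-sire libraries. The injured-sire values were mostly the lower ones, and 2 of the 5 lay within the uninjured-sire range. Means were -0.52 ± 0.12 in injured-sire (SD, n = 5) and -0.27 ± 0.14 in uninjured-sire libraries (SD, n = 6), a difference of -0.25 (two-sided exact permutation over 462 splits, p = 0.0195, adjusted p = 0.0974 over 5 paralogue pairs), which does not pass after adjustment. Replicate 16 had a ratio of -0.50, inside the injured-sire range. Rpl3 shares 85.6% of its 50-base stretches with other annotated genes and Rpl3l none, so multi-mapping reads can be lost from Rpl3 and hardly from Rpl3l.

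**Figure D3:**
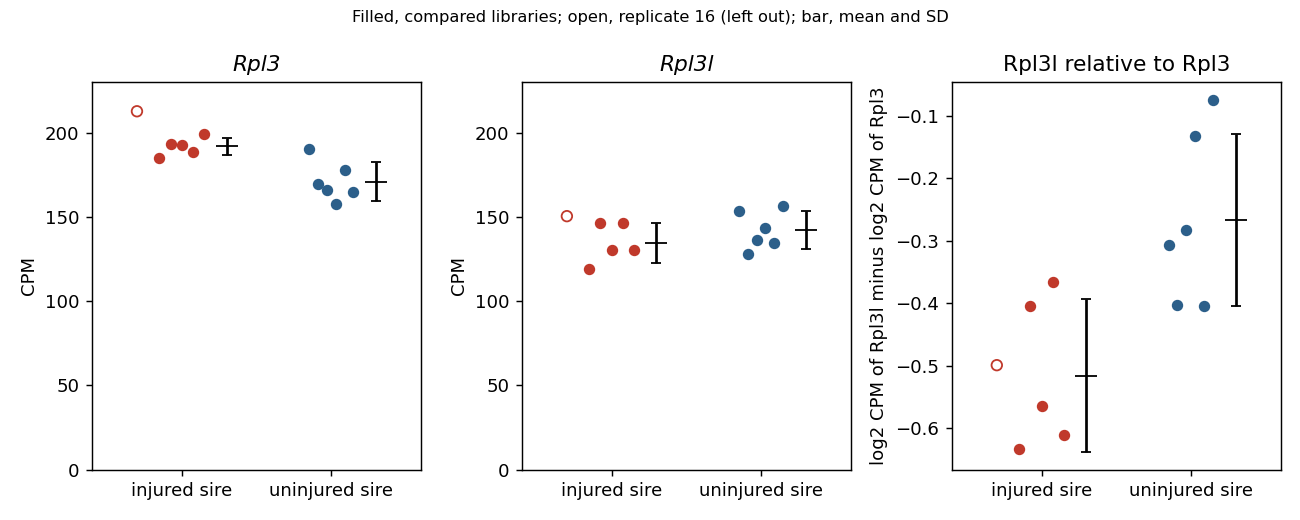
CPM of Rpl3 and of Rpl3l and the log2 ratio of Rpl3l to Rpl3 in each library, injured-sire left and uninjured-sire right; filled points are compared libraries, open points replicate 16, and bars the mean and SD of the compared libraries. Rpl3 averages 192 CPM in injured-sire and 171 CPM in uninjured-sire libraries, Rpl3l 135 CPM in injured-sire and 142 CPM in uninjured-sire libraries, and the ratios overlap between -0.41 and -0.37.

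In the other pairs the difference in log2 ratio was smaller. It was -0.07 for Rpl7l1 against Rpl7, 0.08 for Rpl22l1 against Rpl22, 0.02 for Rps27l against Rps27 and 0.10 for Rps4l against Rps4x, with an adjusted p of 0.565 for each by the same exact permutation test. Rpl7l1, a diverged relative of Rpl7, measured 35.6 ± 4.6 CPM in injured-sire and 36.7 ± 1.41 CPM in uninjured-sire libraries (SD, n = 5 and 6). Rpl22l1 measured 18.2 ± 2.86 CPM in injured-sire and 18.5 ± 1.75 CPM in uninjured-sire libraries. Rps27l, a target of p53, measured 42.8 ± 2.63 CPM in injured-sire and 42.3 ± 3.27 CPM in uninjured-sire libraries, and Rps4l 25.5 ± 3.05 CPM in injured-sire and 23.2 ± 3.62 CPM in uninjured-sire libraries. All 4 paralogues had overlapping groups, and none passed the edgeR test.

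Per length, the paralogues other than Rpl3l were below their parents. In RPKM (CPM per kilobase of counted exon, mean of 12 libraries), Rps27l stood at 42.6% of Rps27 (whose own level is uncertain, with 98.6% of its 50-base stretches in other genes), Rpl22l1 at 21.8% of Rpl22, Rpl7l1 at 11.1% of Rpl7, Rps4l at 10.7% of Rps4x and Rpl39l at 0.910% of Rpl39. Rpl3l stood at 85.0 RPKM and Rpl3 at 57.7 RPKM, but that order depends on the length used: per kilobase of the main annotated transcript they were at 102 and 136. The testis-type paralogue Rpl10l had 29 counts in all 12 libraries together and Rpl6l 101. Rpl32l and Rps12l1 had 0 of 441387547 counts, which allows up to 0.0068 CPM (3 counts over all libraries), for reads that could be counted; the exons of Rpl32l lie wholly within those of another gene on the same strand, and every 50-base stretch of Rps12l1 occurs in another gene.

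Levels differed widely between members, most of whose proteins are present in a single copy per ribosome. Among the 79 genes with at least 10 CPM, levels ran from 9.49 RPKM (Rpl22l1) to 637 RPKM (Rplp1), with a median of 67.0 and quartiles of 41.0 and 120. Rplp1 (637 RPKM), Rps15 (373 RPKM) and Rplp0 (316 RPKM) were highest. Per kilobase of the main transcript, the range was 13.9 to 637 and the median 180. That length leaves out exon bases found only in other annotated forms. For some members the transcript chosen was itself long, with 5130 bases for Rps15a and 3706 for Rps20, which lowers their level per kilobase. These levels are of countable reads, and do not give the abundance of the transcripts.

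Rpl24, Rps10 and Rpl13a, all core proteins of the ribosome, were counted at levels below the 79 genes with at least 10 CPM, as were the paralogues and copies Rpl39l, Rps3a2 and Rps3a3. Rpl24 had 120 counts in 12 libraries (0 to 24 per library), Rps10 617 (15 to 104) and Rpl13a 3802 (252 to 437), giving 0.265, 0.604 and 4.06 RPKM. On GRCm39, 47.0% of the counted exon length of Rpl24 was shared on the same strand with Gm28037 (chr16:55786706-55801084), 20.6% of that of Rps10 with RPS10-NUDT3 (chr17:27799754-27854196) and 35.4% of that of Rpl13a with Gm45713 (chr7:44775346-44785655). All 3 partner genes had 0 counts in every library. Reads that touch exons of more than one gene were left uncounted at the deposited settings, per the file headers, and so were reads that map to several places. These 3 and Rpl32l were the members with over 20% of their length so shared; 28 members had any. Rpl24 was measured at 0.0601 to 0.701 CPM in injured-sire and 0 to 0.476 CPM in uninjured-sire libraries, and its log2 fold change was 0.79 ± 0.75 (SE). The fold changes of Rps10 (0.34 ± 0.32, SE) and Rpl13a (0.08 ± 0.12, SE) likewise rest on few counts for such genes, and the part of overlap or multi-mapping in their low counts was not tested.

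Loss of reads to processed pseudogenes can be gauged from sequence. Of the 50-base stretches of a member's main transcript, a median of 52.1% also occurred in another annotated gene. The share was over 50% in 42 of the 79 members with at least 10 CPM and under 10% in 7. Among these 7 were Rps15a (6.1%) and Rps20 (7.6%), whose main transcripts are long, at 5130 and 3706 bases. The table held 300 rows named as pseudogenes of ribosomal protein genes, most for Rps12 and Rpl31 (24 each). Of these rows, 174 had any count and together they took 9776 counts, 0.182% of the 5380650 counts of members, with at most 142 counts for a row in a library. Rows with enough counts to test numbered 17, and 0 of them were called (smallest edgeR adjusted p = 0.316), with a median log2 fold change of 0.36. These rows held 119 to 870 counts each over all 12 libraries. Rows this low can pass the count filter through the group where they are high, so nothing is read from that median. Named pseudogene rows together took 0.00259% ± 0.000423 of counts in injured-sire (SD, n = 5) and 0.00190% ± 0.000469 in uninjured-sire libraries (SD, n = 6), with ranges of 0.00207% to 0.00302% in injured-sire and 0.00140% to 0.00269% in uninjured-sire libraries that overlapped. Few reads were therefore assigned to the rows named as pseudogenes. Counts of pseudogenes under other names or without a symbol were not summed. Rpl23, for one, shares 50-base stretches with 68 genes and has 0 rows named as its pseudogenes. How many reads were dropped as multi-mapping cannot be read from these counts.

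Members with much shared sequence were not lower in level among the 79 genes with at least 10 CPM, a limit that leaves out the lowest genes. Across these genes the Spearman correlation of RPKM was 0.04 with the share of 50-base stretches and -0.07 with that of 100-base stretches, and that of the level per kilobase of main transcript with 50-base stretches was 0.18, given as a description over genes of the same libraries. Median levels were 43.6, 95.5, 61.3 and 68.3 RPKM in genes with up to 25%, 25 to 50%, 50 to 75% and over 75% shared, with 13, 24, 23 and 19 genes, and 102, 184, 180.0 and 214 per kilobase of main transcript. Rps27, with 98.6% of its 50-base stretches in other genes, stood at 125 RPKM, and Rpl3l, with 0%, at 85.0 RPKM. Rps15a and Rps20, whose main transcripts are long, are in the group with up to 25% shared. Read length is not given in the sources used here, and longer reads map uniquely more often than 50-base ones. With the counts of the named pseudogene rows added to the parent genes, 0 members were called and the median log2 fold change was -0.0019.

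**Figure D4:**
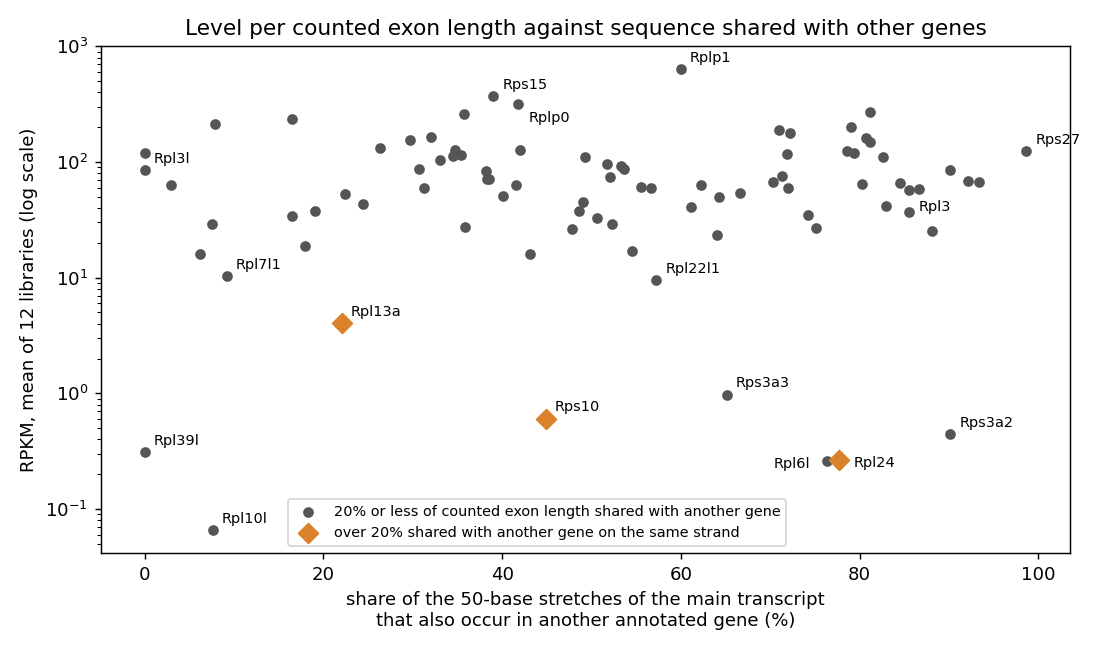
Level in RPKM (mean of 12 libraries, log scale) of each ribosomal protein gene with at least 1 count against the share of its main transcript's 50-base stretches that also occur in another annotated gene; orange diamonds have over 20% of counted exon length shared with another gene on the same strand. Rpl24, Rps10 and Rpl13a, at 0.265, 0.604 and 4.06 RPKM, lie under the band of 9.49 to 637 RPKM that holds 79 genes at all shares of common sequence. Rpl39l, Rps3a2, Rps3a3, Rpl10l and Rpl6l also lie under it, at 0.0657 to 0.975 RPKM, with no counted exon length shared on the same strand.

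Of the ribosome components outside the symbol rule, the scaffold protein Rack1 measured 258 ± 13.4 CPM in injured-sire and 249.9 ± 16.6 CPM in uninjured-sire libraries (SD, n = 5 and 6; edgeR adjusted p = 0.863). Among 17 translation factors and other genes whose mRNAs are known to carry a TOP motif, 0 were called, 10 were measured higher, and the median log2 fold change was 0.01; the smallest p values were those of Vim, an intermediate filament gene (0.16, edgeR adjusted p = 0.443), and the elongation factor gene Eef1a1 (0.08, adjusted p = 0.771). Its range was -0.05 to 0.16, close to that of the ribosomal protein genes with at least 10 CPM.

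Of 34 other initiation and elongation factors, 0 were called, 20 were measured higher, and the median log2 fold change was 0.02. Eif4a1, the RNA helicase that unwinds 5′ leaders for the small subunit, came nearest: it measured 138 to 169 CPM with a median of 140 in injured-sire libraries, against 121 to 135 CPM with a median of 124 in uninjured-sire libraries. All 5 injured-sire libraries were above all 6 uninjured-sire ones, which was so for 0.414% of all genes tested, and the log2 fold change was 0.22 ± 0.059 (SE; edgeR adjusted p = 0.175). By DESeq2's Wald test its adjusted p was 0.035, and over all alternatives it ran from 0.035 to 0.946, with the log2 fold change at 0.12 with a clock score as covariate. The cap-binding protein gene Eif4e had a log2 fold change of -0.14 (edgeR adjusted p = 0.483).

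Ribosome assembly and its control gave no call either. Among 38 assembly factors 20 were measured higher and the median log2 fold change was 0.01, with Rpf2, which brings the 5S particle into the large subunit, at -0.27 (edgeR adjusted p = 0.494) and Nop14 at 0.16 (adjusted p = 0.557). Of 15 genes of RNA polymerase I and its factors, 12 were in the table under these names and tested; 6 were measured higher and the median was -0.01, with Taf1a at -0.30 (adjusted p = 0.429) and Ubtf at -0.09 (adjusted p = 0.694). Among 11 genes of p53 surveillance, 7 were measured higher and the median was 0.02, with Eda2r at -0.44 (adjusted p = 0.525) and Sesn2 at 0.31 (adjusted p = 0.602).

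Among 22 regulators around mTORC1, 0 were called, 9 were measured higher and the median log2 fold change was -0.01. Ddit4, an inhibitor of mTORC1 that glucocorticoids and hypoxia induce, measured 149 to 228 CPM with a median of 188 in injured-sire libraries, against 112 to 166 CPM with a median of 144 in uninjured-sire libraries. Of the injured-sire libraries 4 were above every uninjured-sire one. The log2 fold change was 0.42 ± 0.12 (SE; edgeR adjusted p = 0.254), and DESeq2's Wald test gave an adjusted p of 0.00569, the range over alternatives being 9.999e-05 to 0.820. Rps6kb2, an S6 kinase, stood at -0.21 (edgeR adjusted p = 0.441).

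**Figure D5:**
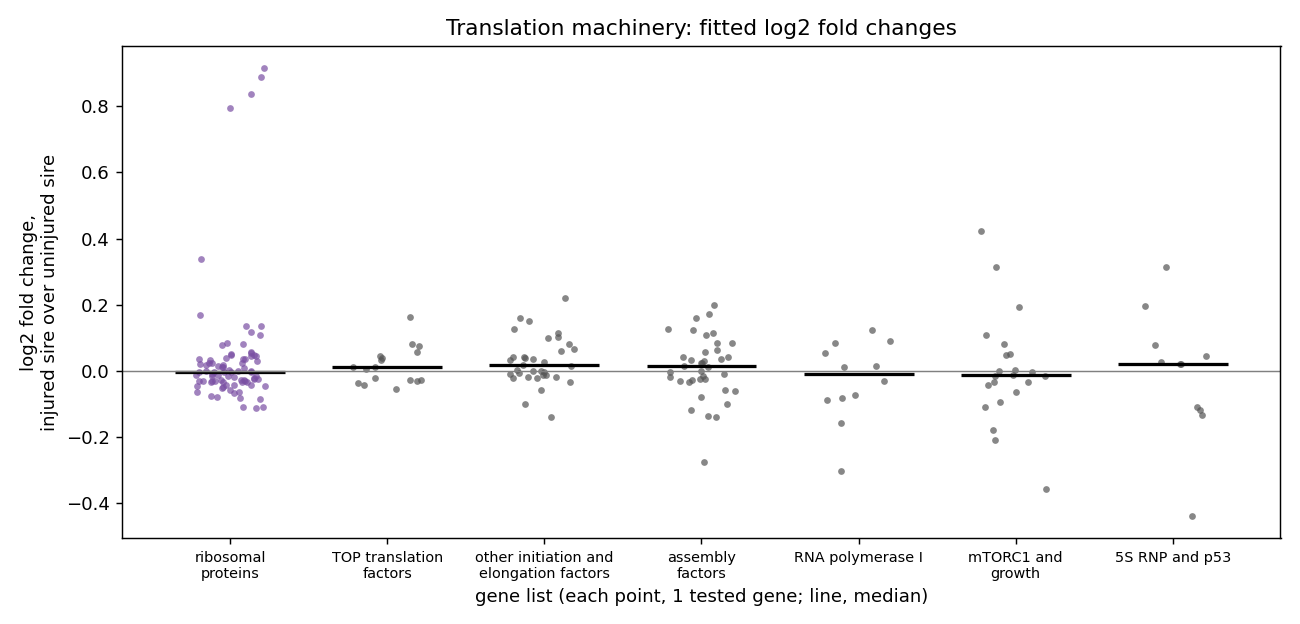
Fitted log2 fold change, injured-sire over uninjured-sire, of the 85 tested ribosomal protein genes (purple) and of 6 lists of other genes of ribosome production and translation (grey); black lines are medians. Medians lie between -0.01 and 0.02 in every list, and the ribosomal protein genes outside the band of -0.11 to 0.17 are genes below 10 CPM.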

How the data were processed

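The authors deposited 1 table of unnormalized counts for Ensembl genes. Per the file headers it was made by featureCounts 2.1.1 (strand setting 2, no paired-end option, no multi-mapping or multi-overlapping reads) with Ensembl 114 on GRCm39. Also named in the submitters' processing notes are STAR 2.7.10a, Subread 2.0.3, Salmon 1.9.0, R 4.4.0 and DESeq2 1.44.0. The table's other 11 sample columns, of samples outside this description, were left unused. Exon length per gene, also in the deposited table, gave RPKM. Symbols came from GENCODE M21 by gene ID (51487 of 78317 IDs, holding 99.3% of counts).

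In R 4.3.3, edgeR 4.0.16 (filterByExpr with minimum count 10 and total 15, TMM factors, robust quasi-likelihood F test, two-sided, Benjamini-Hochberg over all 17130 genes, threshold 0.05) compared 5 injured-sire with 6 uninjured-sire libraries; SEs come from the F statistic, CPM are TMM-scaled and log2 CPM use a prior count of 2. Libraries within a group differed beyond sampling noise (chi-square over its degrees of freedom 13.3 to 40.3 in 30 pairs), so none was taken as a repeat. Paralogue ratios were compared by exact permutation. Sequence sharing used the GENCODE M21 transcripts, and overlap the exons in the deposited table. Genes given values were the 8 members with the smallest p, those of the stalk and 5S particle, Rps6, Rps19, paralogues, the highest and lowest levels, and the 2 genes of each other list with the smallest p; genes outside this are named only for their count or place. Alternatives tried were other scalings, filters, tests, covariates and sets of libraries. The steps were tested on simulated counts. Values of some genes that the naming rule took are not reported here. Members, lists and alternatives were chosen with earlier results of these data known.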

Additional observations from a re-analysis of the deposited data

Results flagged for a closer look

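In replicate 16, left out of the comparison, ribosomal protein genes took 1.34% of counts, against at most 1.31% in any uninjured-sire library. Their median centred log2 CPM there was 0.265, against at most 0.147 in uninjured-sire libraries. A single uninjured-sire library, replicate 18, stood apart from the other five for Rps12, with a log2 CPM of 7.70 against 7.40 in the next highest, and for Rps24, with 8.11 against 7.89. Injured-sire replicate 12 stood apart for Rps3a2, with a log2 CPM of -3.63 against -1.11 in the next lowest, at 1 count. A gap test was run on 73 sets of samples and these 3 passed it, where chance alone passes about 1 in 20.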

How the results depend on the processing

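Under all alternatives run, 0 ribosomal protein genes were called. The SD of medians between single libraries was 0.0816, which is not the error of a difference between groups. The median log2 fold change of these genes moved by less than that SD under every alternative, which is no test of the shift. That median was -0.03 to 0.03 with each library left out in turn (65 of 85 members higher without uninjured-sire replicate 18), 0.05 with all 12 libraries (72 of 83 members higher), 0.05 with a clock score as covariate (63 of 85 higher) and -0.07 with airway and fat scores as covariates (65 of 85 lower; 9 with an unadjusted edgeR p below 0.05, where 9.21% of all genes had one), so the direction of most members depended on these choices and the cause was not tested. The number of all genes called moved more: 8 to 43 with each library left out (8 without injured-sire replicate 13, 9 without injured-sire 14 or uninjured-sire 23, 28 without injured-sire 12, 43 without uninjured-sire 22), 130 by DESeq2's Wald test, 236 with no filter, 28 with a filter of 1 CPM in 5 libraries, 49 at a threshold of 0.1 and 0 with the clock covariate in edgeR (5.47% of genes below 0.05 unadjusted). Ddit4 passed by DESeq2's Wald test (0.42, adjusted p = 0.00569), with no filter (0.40) and with airway and fat covariates (0.62), with adjusted p of 9.999e-05 to 0.820 over its alternatives; Eif4a1 passed by the Wald test (0.22), with adjusted p of 0.035 to 0.946 over its alternatives. The Rpl3l to Rpl3 ratio difference kept its sign, at -0.29 to -0.21 with each library left out, with an exact permutation adjusted p of 0.0714 to 0.214, and 0.0541 with all 12 libraries; these settings were chosen after seeing the data. As sex is not given for single libraries, a fit also took the level of Xist, a transcript of female cells, as covariate. In that fit 46 members were higher and 39 lower, 0 were called, and the median log2 fold change was 0.0053. No paired analysis was possible because the groups share no replicate number. Depth limits the 6 members under 10 CPM (median SE 0.53) more than the other 79 (0.064).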
